A study of Mus musculus with 3 samples.

Results

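Endothelial cells line every vessel of the heart and are held together by proteins of 2 kinds of junction. Adherens junctions are built on VE-cadherin, and tight junctions on claudin-5, on junctional adhesion molecules and on the cytoplasmic scaffold ZO-1. Sialomucins and diaphragm proteins coat the cell surface, and the set of these genes is widely used to recognise endothelium and to distinguish capillary, venous and fenestrated vessels. Here 10 such genes were followed in left ventricles of mice: Cdh5, Pecam1, Cldn5, Tjp1, F11r, Jam2, Jam3, Esam, Emcn and Plvap. They were taken by symbol from a list that uses no threshold on their values, but that was drawn up with earlier results of these data known. All 10 were found among the 15503 genes that the 3 deposited tables cover together, and all had a value in each of the 3 libraries.

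The mice were C57BL6J of 3 genotypes. Egln1_floxed mice carry loxP-flanked Egln1, with no Cre named in their label, and the design text calls the controls wild type. Egln1_Tie2Cre mice carry Cre recombinase under the Tie2 promoter for deletion of Egln1, which encodes the oxygen-sensing prolyl hydroxylase PHD2, and Egln1_Hif2a_Tie2Cre mice are labelled as deleted for Hif2a (gene Epas1) as well. The Tie2 promoter is active in endothelium and in blood-forming cells, so the deletions are not limited to vessels. Each genotype is 1 library, made from pooled RNA of 3 mice. No age or sex is given in the labels used here, and no difference between libraries has a replicate check. Values are FPKM, which are fragments scaled to transcript length and to all mapped fragments of the library, and their depth is unknown. There is no spread between replicates, so every comparison is between libraries and none has a p-value. In whole ventricle, fewer endothelial cells and less RNA per endothelial cell cannot be told apart.

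The targeted genes were read first. Egln1 was 129.5, 95.7 and 129.0 FPKM in Egln1_floxed, Egln1_Tie2Cre and Egln1_Hif2a_Tie2Cre, and Epas1 was 77.4, 65.0 and 54.5. The last Egln1 value is nearly that of the control, so the labelled Egln1 deletion is not seen in it, whereas Epas1 was lowest in that pool. Whole ventricle also holds RNA of cells in which Tie2Cre does not act, but so does that of Egln1_Tie2Cre, where Egln1 was 95.7. Whether such RNA accounts for the even total was not tested. Neither deletion was tested, and the pool is called the library labelled Egln1_Hif2a_Tie2Cre. Every direction drawn from it rests on its label. Throughout, 3 values in a row are in the order Egln1_floxed, Egln1_Tie2Cre, library labelled Egln1_Hif2a_Tie2Cre.

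Emcn and Cldn5 had the largest differences among the 10 genes, and both were highest in the library labelled Egln1_Hif2a_Tie2Cre. Emcn encodes endomucin, a sialomucin of capillary and venous endothelium that hinders leukocyte adhesion. Its FPKM was 21.4, 21.9 and 44.8. The first 2 libraries were thus nearly equal and the third stood 2.09-fold above the control and 2.05-fold above Egln1_Tie2Cre. Cldn5, the dominant claudin of endothelial tight junctions, was 14.4, 11.8 and 24.3 FPKM. It was 1.22-fold lower than the control in Egln1_Tie2Cre and 1.69-fold higher in the library labelled Egln1_Hif2a_Tie2Cre, which leaves the 2 Cre libraries 2.06-fold apart. Emcn (ENSMUSG00000054690) lies on chromosome 3, 137341067 to 137432185, plus strand, and has 12 exons in its longest coding transcript. Cldn5 (ENSMUSG00000041378) lies on chromosome 16, 18776847 to 18778262, plus strand, and has 1 exon. These and the following positions are from GENCODE M21 on GRCm38, matched by gene identifier.

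**Figure D1:**
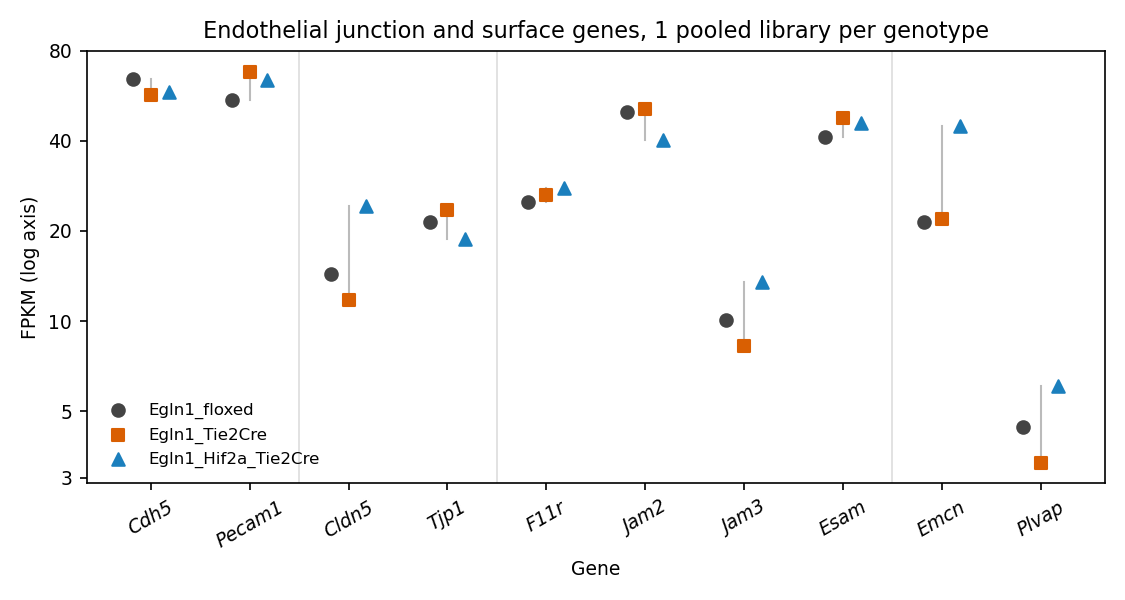
FPKM (log axis) of the 10 genes in the 3 libraries, 1 point per pooled library, with a grey line from the lowest to the highest value; vertical lines separate VE-cadherin and PECAM-1, tight junction genes, the immunoglobulin-type adhesion molecules and the surface genes. Emcn (44.8) and Cldn5 (24.3) are set apart in the library labelled Egln1_Hif2a_Tie2Cre, whereas Cdh5, Esam and F11r lie close together in all 3.

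The RefSeq promoter table (GRCm38.p6) held a start site for 4 of the 10 genes, which are Cldn5, Emcn, Tjp1 and F11r. Shown are the 250 bases before the start of Emcn and of Cldn5, the genes with the largest differences, and of F11r, whose level was nearly even across libraries. The windows are chr3:137340828-137341077, chr16:18776597-18776846 and chr1:171437311-171437560, all on the plus strand. Capitals mark GGAA or its reverse complement TTCC, the core letters of ETS factor sites, and ACGTG or GCGTG or their reverse complements, the core letters of HIF sites. The last bases of the Emcn and F11r windows lie past the GENCODE gene starts, since RefSeq places the starts further downstream.
Emcn: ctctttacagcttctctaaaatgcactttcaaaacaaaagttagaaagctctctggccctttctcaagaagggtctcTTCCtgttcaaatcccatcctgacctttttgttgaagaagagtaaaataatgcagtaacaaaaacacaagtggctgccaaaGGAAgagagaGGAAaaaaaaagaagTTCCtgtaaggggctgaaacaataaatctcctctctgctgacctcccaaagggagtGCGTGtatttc
Cldn5: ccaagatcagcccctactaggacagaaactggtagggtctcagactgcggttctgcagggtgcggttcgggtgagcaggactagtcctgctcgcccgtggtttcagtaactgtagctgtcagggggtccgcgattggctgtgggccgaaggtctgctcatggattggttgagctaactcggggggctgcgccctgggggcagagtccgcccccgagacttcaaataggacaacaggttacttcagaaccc
F11r: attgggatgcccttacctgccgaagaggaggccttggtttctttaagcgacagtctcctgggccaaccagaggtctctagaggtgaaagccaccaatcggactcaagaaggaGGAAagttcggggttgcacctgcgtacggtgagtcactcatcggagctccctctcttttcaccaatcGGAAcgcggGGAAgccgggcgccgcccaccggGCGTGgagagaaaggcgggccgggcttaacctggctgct
The Emcn window held 4 ETS core matches and 1 HIF core match, GCGTG from 11 to 7 bases before the start. The Cldn5 window held 0 of either. The F11r window held 3 ETS core matches and 1 HIF core match (39 to 35 bases before the start), and that of Tjp1 held 3 and 0. The ETS core letters occur in 93.4% of the 32851 windows of this length in the table and the HIF core letters in 38.6%. The windows also differed in base composition, with a GC content of 40.8% for Emcn, 59.6% for Cldn5, 60.0% for F11r and 63.2% for Tjp1, against a median of 52.4% over the table. These matches are descriptions of letters and not binding sites.

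VE-cadherin and PECAM-1, the defining adhesion molecules of endothelium, differed little. Cdh5 encodes VE-cadherin, the transmembrane core of the endothelial adherens junction. It was 64.3, 56.9 and 58.1 FPKM, highest in the control and 1.13-fold and 1.11-fold lower in the Cre libraries. Cdh5 was the only one of the 10 genes whose highest value was in the control. Pecam1 encodes PECAM-1 (CD31), a homophilic adhesion receptor of endothelium, platelets and leukocytes. It was 54.7, 67.7 and 63.9 FPKM, lowest in the control and 1.24-fold and 1.17-fold higher in the Cre libraries. The order of the pair was therefore reversed, with a Pecam1 to Cdh5 ratio within each library of 0.851, 1.19 and 1.10. Cdh5 (ENSMUSG00000031871) lies on chromosome 8, 104101625 to 104144511, plus strand, and Pecam1 (ENSMUSG00000020717) on chromosome 11, 106654217 to 106750628, minus strand.

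Set against Cdh5 of the same library, which removes the scaling between libraries, Emcn and Cldn5 were again highest in the library labelled Egln1_Hif2a_Tie2Cre. The Emcn to Cdh5 ratio was 0.333, 0.385 and 0.770, and the Cldn5 to Cdh5 ratio was 0.224, 0.207 and 0.417. Cdh5 was itself highest in the control, so these ratios raise both Cre libraries relative to the control. Against Pecam1, which was lowest in the control, the ratios were 0.391, 0.323 and 0.7003 for Emcn and 0.263, 0.173 and 0.379 for Cldn5. Both were again highest in the last library, but both rises over the control were smaller. Emcn was then below the control in Egln1_Tie2Cre. Of the summed FPKM of the 10 genes, Emcn made up 6.97%, 6.87% and 13.0%, and Cldn5 4.69%, 3.69% and 7.06%. The sum itself was 306.7, 318.6 and 343.7 FPKM.

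The junctional adhesion molecules, immunoglobulin-type receptors that bind to one another and to leukocyte integrins, differed in order. Jam2 encodes JAM-B and was 49.96, 51.2 and 40.2 FPKM, even in the first libraries and 1.24-fold below the control in the library labelled Egln1_Hif2a_Tie2Cre. Jam3 encodes JAM-C, a binding partner of JAM-B, and was 10.1, 8.23 and 13.5 FPKM. It was 1.22-fold lower in Egln1_Tie2Cre, 1.34-fold higher in the library labelled Egln1_Hif2a_Tie2Cre, and 1.64-fold apart between these. Jam2 and Jam3 thus had opposite orders, and the Jam2 to Jam3 ratio within a library was 4.96, 6.22 and 2.97. F11r encodes JAM-A, which is also found in epithelium and platelets, and was 24.9, 26.3 and 27.9 FPKM, within 1.12-fold over all libraries. Esam encodes a related molecule of endothelium and platelets and was 41.2, 47.7 and 46.1 FPKM, within 1.16-fold.

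Jam3 is uncertain, because its exons overlap those of Gm48796, an antisense gene that matches 30.8% of the Jam3 transcript. The longest shared stretch is 211 bases at 99.5% identity. Whether the authors counted by strand is not given in the sources used here. Of the F11r transcript, 4.2% matches repeats present in other transcripts, the longest match being 90 bases at 93.3% identity. The other 8 genes matched 0 other genes over at least 50 bases at 90% identity, so no near-identical annotated copy was found for them. Jam2 (ENSMUSG00000053062) lies on chromosome 16, 84774123 to 84825928, plus strand, and Jam3 (ENSMUSG00000031990) on chromosome 9, 27097384 to 27155421, minus strand. Esam (ENSMUSG00000001946) lies on the same chromosome as Jam3, 37528078 to 37538319, plus strand, and F11r (ENSMUSG00000038235) on chromosome 1, 171437535 to 171464603, plus strand.

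The remaining members were a junction scaffold and a diaphragm protein. Tjp1 encodes ZO-1, which links claudins and junctional adhesion molecules to actin and is also present at the intercalated discs of cardiomyocytes. It was 21.4, 23.6 and 18.8 FPKM, 1.10-fold higher in Egln1_Tie2Cre and 1.14-fold lower in the library labelled Egln1_Hif2a_Tie2Cre. Plvap encodes the protein that forms the diaphragms of endothelial fenestrae and caveolae, and is sparse in the continuous capillaries of heart muscle. It had the lowest level of the 10 genes in every library, at 4.44, 3.34 and 6.05 FPKM. Plvap was 1.33-fold lower in Egln1_Tie2Cre and 1.36-fold higher in the library labelled Egln1_Hif2a_Tie2Cre, and these libraries were 1.81-fold apart. Tjp1 (ENSMUSG00000030516) lies on chromosome 7, 65296165 to 65527781, and Plvap (ENSMUSG00000034845) on chromosome 8, 71497765 to 71511752, both on the minus strand.

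The genes can be grouped by the library in which they were highest. Cldn5, Emcn, Jam3, F11r and Plvap were highest in the library labelled Egln1_Hif2a_Tie2Cre. Pecam1, Esam, Tjp1 and Jam2 were highest in Egln1_Tie2Cre. Of the 10 genes, 3 (Cldn5, Jam3 and Plvap) ran from Egln1_Tie2Cre through the control up to the library labelled Egln1_Hif2a_Tie2Cre, an order shown by 19.3% of the 11479 genes kept in all comparisons. Another 2 (Tjp1 and Jam2) ran the opposite way, as 20.9% of those genes did. Pecam1 and Esam were lowest in the control and highest in Egln1_Tie2Cre (18.1% of genes), Emcn and F11r lowest in the control and highest in the library labelled Egln1_Hif2a_Tie2Cre (12%), and Cdh5 lowest in Egln1_Tie2Cre and highest in the control (17.1%). The remaining order, shown by 12.6% of genes, had 0 members. With 10 members, these counts give no order that is particular to them. In rank of level the control ran Cdh5, Pecam1, Jam2, Esam, F11r, Tjp1, Emcn, Cldn5, Jam3, Plvap. In Egln1_Tie2Cre Cdh5 and Pecam1 stood in the opposite order and the others were placed alike. In the library labelled Egln1_Hif2a_Tie2Cre, Emcn stood at rank 4 between Esam and Jam2, and Cldn5 above Tjp1. Whether neighbours in these orders differ cannot be said without replicates, and Emcn and Tjp1 were all but equal in the control.

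The first comparison asks what deletion of Egln1 with Tie2Cre does to the ventricle. On the scale of log2 ratios of FPKM + 1, which understates differences of genes at low FPKM, the 10 genes lay between -0.32 (Plvap) and 0.30 (Pecam1) in Egln1_Tie2Cre over Egln1_floxed. The count at least 1.5-fold higher was 0 of 10, where 9.46% of the 11978 kept genes were, and the count at least 1.5-fold lower was also 0, where 8.73% were. Past 2-fold the counts were 0 in both directions, against 3.93% higher and 3.84% lower. By sign alone 6 members were higher and 4 lower, against 51.9% and 48.1%. Kept genes are those whose FPKM averaged 1 or more in the pair. The median of the 10 genes was 0.03, against 0.02 over all kept genes. Another 34 endothelial markers, a list without these 10 genes, had a median of 0.06 but a range from -2.00 to 2.08, with 6 past 1.5-fold upward and 5 downward. This list shares Cd34, Podxl, Icam2 and others with the list of surface partners described further on. Vwf, the carrier of factor VIII stored in endothelial granules, was 89.2 against 20.4 FPKM, and Aplnr, the apelin receptor, was 3.77 against 18.1. Past 2-fold on the log2 scale of FPKM + 1 were 1 of the 34 markers upward and 2 downward. With 10 members and the shares of all genes given above, a count of 0 past 1.5-fold does not set the members apart.

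In the library labelled Egln1_Hif2a_Tie2Cre over Egln1_floxed, 7 of the 10 genes were higher and 3 lower, where 49.4% of the 11888 kept genes were higher and 50.6% lower. At least 1.5-fold higher were 2 (Emcn, log2 ratio 1.03, and Cldn5, 0.71), against 4.42% of kept genes, and 0 were 1.5-fold lower, against 3.28%. Emcn alone passed 2-fold, as did 0.538% of kept genes, and 0 were 2-fold lower, against 0.437%. The median of the 10 genes was 0.19, against -0.0038 over all kept genes, and that of the 34 endothelial markers was 0.16, with 25 higher and 9 lower but only 1, Egfl7, at least 1.5-fold higher. Egfl7, a secreted endothelial factor, was 168.7 against 107.0 FPKM. Relative to the median of the endothelial list, Emcn stood at 0.87 and Cldn5 at 0.55, whereas Jam2 stood at -0.47, Tjp1 at -0.34 and Cdh5 at -0.31.

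In the library labelled Egln1_Hif2a_Tie2Cre over Egln1_Tie2Cre, 4 of the 10 genes were at least 1.5-fold higher, against 9.67% of the 11999 kept genes. These were Emcn (log2 ratio 0.9998), Cldn5 (0.99), Plvap (0.70) and Jam3 (0.66). At least 1.5-fold lower were 0, against 9.64%, and the lowest were Jam2 at -0.34 and Tjp1 at -0.31. Past 2-fold on this scale were 0 in both directions, against 4.31% higher and 4.08% lower. By sign alone 6 were higher and 4 lower, against 47.5% and 52.5%. The median of the 10 genes was 0.06, since the other members lay between -0.08 and 0.08 apart from Jam2 and Tjp1. The 34 endothelial markers ranged here from -2.26 to 2.49, and their median was 0.11. Among these markers, 8 passed 1.5-fold upward and 6 downward, and 4 and 2 of them passed 2-fold. A rise past 1.5-fold between the Cre libraries was thus not particular to the 10 members. The 3 comparisons share libraries, so their values stand side by side and do not support one another. In the authors' deposited tables, all 30 q-values of these genes were 0.9996. The share of all genes with this q-value was not computed, so it does not set the members apart.

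**Figure D2:**
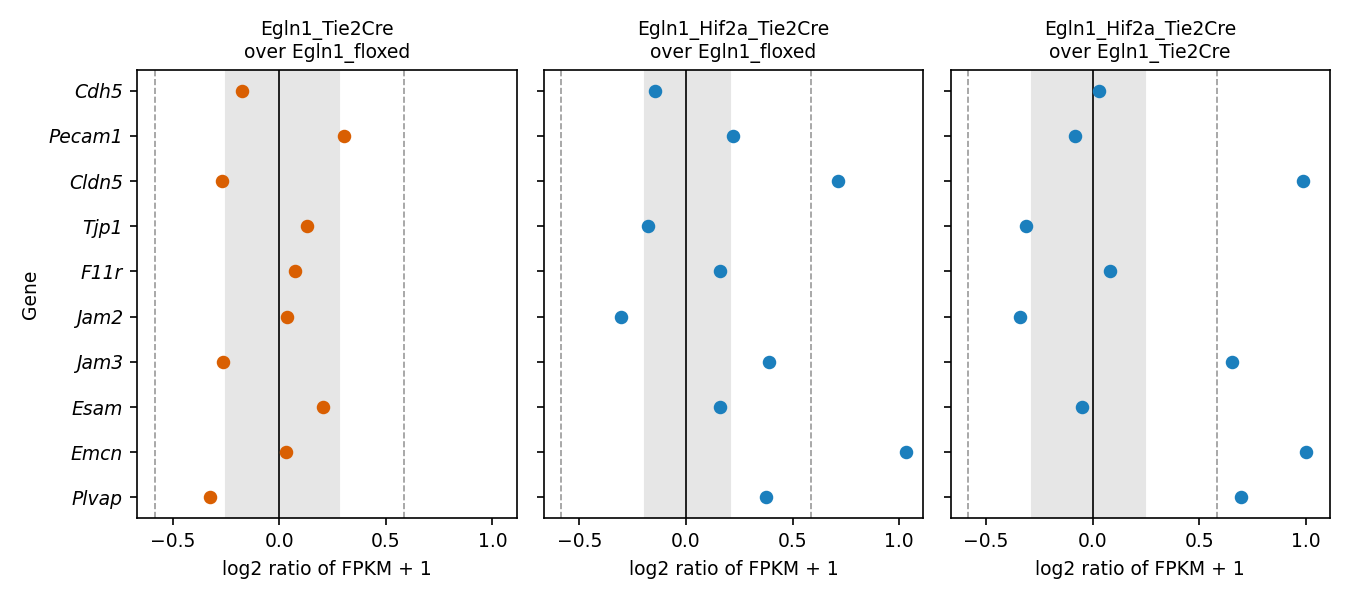
Log2 ratio of FPKM + 1 of each gene (points) in the 3 comparisons. The grey band holds the middle 50% of kept genes and the dashed lines mark 1.5-fold; no gene passes them in Egln1_Tie2Cre over Egln1_floxed, 2 do in the middle panel and 4 in the right panel.

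Transcript length moved with the ratios in all 3 comparisons, with the widest span in the library labelled Egln1_Hif2a_Tie2Cre over Egln1_floxed. There, over all kept genes divided into 10 equal groups by the length of the longest coding transcript, the median log2 ratio went from 0.31 in the shortest group to -0.18 in the longest. It went from 0.17 to -0.05 in Egln1_Tie2Cre over Egln1_floxed and from 0.08 to -0.11 between the Cre libraries. Members followed the same order in part. The longest transcripts of the set, Tjp1 (7049 bases) and Jam2 (4370 bases), had the lowest ratios, and Cldn5 (1416 bases) is the shortest. Centred on the median of its length group, Tjp1 was at -0.0013 in place of -0.18, which is the median of genes of its length. Cldn5 was then at 0.58, at the edge of 1.5-fold and just short of it, and Emcn (2588 bases) at 1.0047. Jam2 was at -0.22, Jam3 at 0.31 and Plvap at 0.30 after the same centring. Between the Cre libraries, 4 members were still at least 1.5-fold higher after centring, with Cldn5 at 0.93, Plvap at 0.68 and Jam3 at 0.63.

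**Figure D3:**
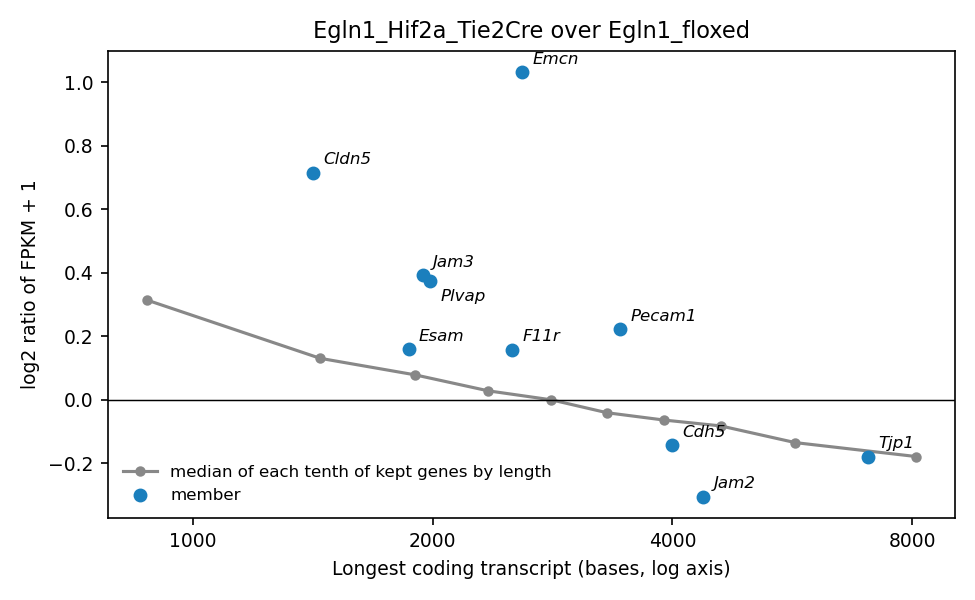
Log2 ratio of FPKM + 1 in the library labelled Egln1_Hif2a_Tie2Cre over Egln1_floxed (vertical axis) against the longest coding transcript in bases (log axis), for the 10 genes in blue and for the median of each of 10 length groups of kept genes in grey. Emcn and Cldn5 lie well above the grey line, and Tjp1 lies on it.

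The partners of these proteins were taken from lists. Of 20 adherens junction partners, 19 were kept. In Egln1_Tie2Cre over Egln1_floxed 2 were at least 1.5-fold higher and 2 lower (median 0.02), against 9.46% and 8.73% of kept genes. In the library labelled Egln1_Hif2a_Tie2Cre over Egln1_floxed 0 were higher and 1 lower (median -0.07), against 4.42% and 3.28%. The one that was lower was Vcl, vinculin, which ties cadherin complexes to actin and was 20.7, 34.5 and 11.7 FPKM. Mllt4, the nectin-binding scaffold afadin, was 45.9, 21.3 and 66.3 FPKM, and Pdcd10, a gene of cerebral cavernous malformation, was 15.4, 3.73 and 18.5. Of 25 tight junction partners, 16 were in the tables and 11 to 13 were kept. The tight junction medians were 0.10 in Egln1_Tie2Cre over Egln1_floxed and -0.09 in the library labelled Egln1_Hif2a_Tie2Cre over Egln1_floxed. Cxadr, an adhesion molecule related to the junctional adhesion molecules, was 7.98, 5.53 and 7.06 FPKM. Magi3, a scaffold of the ZO-1 kind, was 11.8, 7.18 and 8.25 FPKM, the largest difference among tight junction partners at an FPKM of 5 or more in the higher library.

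Surface partners were mixed. Of 15, 14 were kept in the library labelled Egln1_Hif2a_Tie2Cre over Egln1_floxed, with 10 higher, 4 lower and 1 at least 1.5-fold higher (median 0.21). The shares over all kept genes were 49.4%, 50.6% and 4.42%. Cd34, another sialomucin, was 61.2, 51.9 and 75.9 FPKM. Podxl, podocalyxin, of the same family and chosen after its values were seen, was 49.4, 37.9 and 58.7. Both were highest where Emcn was highest, but others were not. Cd164, a further sialomucin, also chosen after its values were seen, was 56.1, 41.2 and 52.2, highest in the control. Clec14a, a C-type lectin of endothelium, was 6.86, 13.1 and 4.99, lowest where Emcn was highest. In Egln1_Tie2Cre over Egln1_floxed, 5 of 13 were at least 1.5-fold higher and 1 lower, against 9.46% and 8.73% of kept genes. Among those higher were Icam2, an adhesion molecule of resting endothelium, at 39.5 against 19.96 FPKM, and Mcam at 34.8 against 18.3.

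Most caveolar genes of the list were ordered like Plvap, whose product forms diaphragms in endothelial caveolae. Among them were all caveolin and cavin genes of the list, a grouping made after the values were seen. The cells that express each gene cannot be told apart in whole ventricle. Of the genes kept in all comparisons, 19.3% had this order. Cav1, caveolin-1, was 137.2, 94.1 and 153.1 FPKM, and Cav2, caveolin-2, was 26.5, 19.6 and 38.7, each lowest in Egln1_Tie2Cre. Of the 12 caveolar genes, 10 were lower in Egln1_Tie2Cre than in the control (median -0.28), as were 48.1% of kept genes. But 0 were at least 1.5-fold lower, against 8.73%, and 1 was at least 1.5-fold higher, against 9.46%. The higher one was Nostrin, which binds endothelial nitric oxide synthase, at 4.23, 8.64 and 6.55 FPKM. Nostrin thus differed from Plvap in Egln1_Tie2Cre, but both were above the control in the library labelled Egln1_Hif2a_Tie2Cre. Ehd4, a membrane-trafficking protein, was 146.2, 165.8 and 110.5, the reverse of the order of Plvap. Among 14 measured endothelial transcription factors the median was 0.07 in the library labelled Egln1_Hif2a_Tie2Cre over Egln1_floxed. There 2 were at least 1.5-fold higher and 0 lower, against 4.42% and 3.28% of kept genes. The higher ones were Klf4 (9.78, 18.6 and 21.5 FPKM) and Klf2 (20.6, 31.6 and 33.4), flow-responsive factors that were about as high in Egln1_Tie2Cre. Ets1, an ETS factor, was 18.0, 15.6 and 23.96, and Erg, the ETS factor that maintains Cdh5 expression, was 13.7, 11.6 and 14.7.

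**Figure D4:**
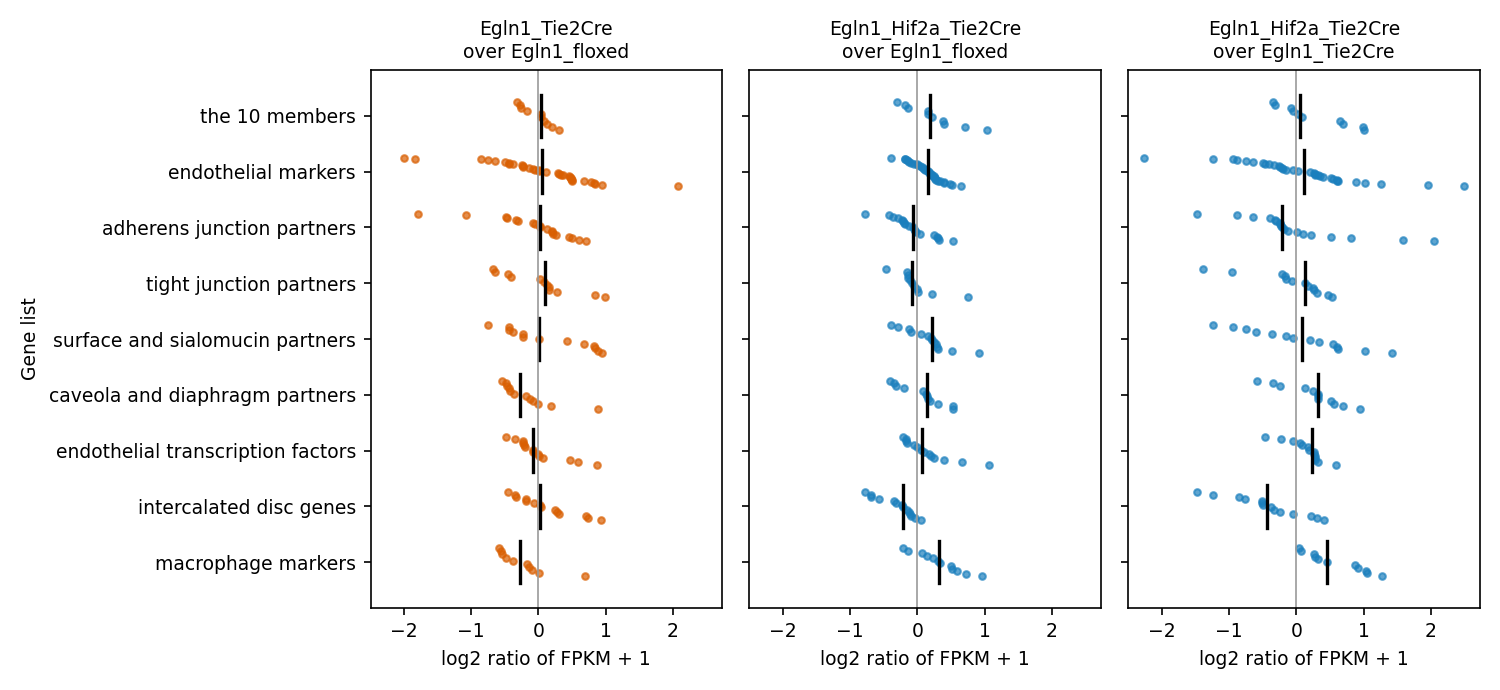
Log2 ratio of FPKM + 1 of each kept gene (points) of 9 lists in the 3 comparisons, with the list median as a black bar. The 10 members span -0.32 to 0.30 in the left panel, where the endothelial markers span -2.00 to 2.08.

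By likeness of pattern, measured as the Euclidean distance over the log2 ratios of both Cre libraries against Egln1_floxed among the genes of all lists, Jam3 and Plvap were each other's nearest gene (distance 0.062), followed by Ets1 for Jam3 and Cd34 for Plvap. Pecam1 was nearest to Ly6c1, a surface protein of microvascular endothelium (175.0, 214.9 and 206.9 FPKM), and to Kdr, the main VEGF receptor (32.9, 42.9 and 37.2). Emcn was nearest to Higd1b, a pericyte gene (11.9, 13.4 and 24.4 FPKM), at a distance of 0.14. Cldn5 was nearest to Dpt, dermatopontin of fibroblasts (48.4, 36.9 and 71.4 FPKM), at 0.20. Esam was nearest to Tnnt2, the troponin T of cardiomyocytes, at 0.0021. These distances rest on 3 libraries, and near matches among unrelated cell types are therefore common.

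Other cell types that share some of these genes also differed between libraries. Macrophage markers, 12 of 12 found, summed to 249.6, 191.7 and 369 FPKM. Of the 12, 10 were above the control in the library labelled Egln1_Hif2a_Tie2Cre (median 0.32), as were 49.4% of kept genes. Platelet markers, 8 of 10 found, summed to 23.7, 24.9 and 31.7 FPKM, mostly from Pf4 (19.1, 21.4 and 29.1), which macrophages can also express, and Itga2b was 1.48, 0.312 and 0.667. Pecam1, Esam, Jam3 and F11r are expressed in blood cells too, and the part of these cells in their values was not tested. Epithelial and mesothelial markers, 5 of 11 found, summed to 2.95, 31.6 and 2.62 FPKM. Epithelia also express F11r and Tjp1, of which Tjp1 was highest in Egln1_Tie2Cre as well, and the part of these cells in their values was not tested. Of 14 intercalated disc genes, 13 were below the control in the library labelled Egln1_Hif2a_Tie2Cre (median -0.22), as were 50.6% of kept genes. Tjp1 was lowest in that library as well, but was at -0.0013 once centred on genes of its length. Transcript length was not allowed for in the disc genes, and the part of cardiomyocytes in Tjp1 was not tested. Lymphocyte markers, 5 of 8 found, summed to at most 2.26 FPKM, and neutrophil markers, 4 of 8 found, summed to 2.15, 56.1 and 10.1 FPKM. No gene of these lists was listed at 0, but some had no value. These were 1 platelet, 1 cardiomyocyte and 1 endocardial or lymphatic marker in Egln1_Tie2Cre. They also were 2 platelet markers in the library labelled Egln1_Hif2a_Tie2Cre and 1 neutrophil marker in the control. In the library labelled Egln1_Hif2a_Tie2Cre over Egln1_floxed, where Emcn and Cldn5 were highest, the medians were 0.07 for fibroblast, -0.03 for pericyte and smooth muscle and -0.09 for cardiomyocyte markers. Endocardial and lymphatic markers, 9 of 10 found and Plvap among them, summed to 50.2, 42.8 and 65.2 FPKM. Their median in the same comparison was 0.34, with 7 of 9 above the control, as were 49.4% of kept genes. The part of these cells in Plvap was not tested. HIF target genes had a median of 0.53 in that comparison, with 5 of 11 at least 1.5-fold higher, against 4.42% of kept genes. In Egln1_Tie2Cre over Egln1_floxed their median was 0.48, also with 5 of 11, against 9.46%.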

How the data were processed

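Left ventricular RNA of 3 mice was pooled per genotype and sequenced on an Illumina instrument, per the labels, giving 1 library for each of 3 genotypes. The authors deposited 3 tables, 1 for each pair of libraries. They hold, per the file headers, the FPKM of each library, the fold change between the 2 libraries (a ratio of their FPKM) and a q-value. TopHat2 and Cuffdiff are named in the submitters' processing notes, and the sources used here do not give versions, genome build, annotation or strand setting. FPKM columns were assigned to libraries by the titles in each table's name. The assignment was checked on recurring values, which were identical for 14368 of 14369, 14489 of 14489 and 14367 of 14367 shared genes.

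Log2 ratios of FPKM + 1 were computed for genes averaging 1 FPKM or more in the pair, and plain folds are ratios of FPKM. With 1 library per genotype no test was run, and the counts of genes past 1.5-fold are set beside those over all kept genes. The genes named beside the 10 members are, per list and comparison, up to 3 with the largest absolute log2 ratio where the higher FPKM reaches 5, unless stated. Also named are the targeted genes and the genes nearest in pattern, and genes of the marker lists for other cell types are named only where a member shares them. Itga2b, Podxl and Cd164 were named, and the caveolin and cavin genes grouped, after their values were seen. The members, lists and comparisons were chosen with earlier results of these data known. Transcript lengths and overlaps are from GENCODE M21, copies were searched with BLAST+ 2.17.0, promoters are from RefSeq (GRCm38.p6), and Python 3.11.15 with pandas 2.3.3 did the rest. The counting of folds was tested on simulated data. Alternatives were another pseudocount, other filters, a 2-fold threshold, 3 kinds of centring, and members without an overlapping gene.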

Additional observations from a re-analysis of the deposited data

How the results depend on the processing

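With 1 library per genotype, no replicate could be left out, and no difference can be separated from variation between pools. No paired analysis was possible because each genotype has 1 library. A value was taken to have moved when it changed by 0.1 or more on the log2 scale or, for a count, by over 1.5 times. Under 8 other settings and 1 chosen after seeing the data (without Jam3, whose exons overlap another gene), no difference past 1.5-fold changed direction. Of 102 recomputed counts and medians, 97 kept their value within these limits. Dropping the filter could not change them, as all 10 members and all 34 endothelial markers were kept with it. At a threshold of 2-fold, the count of higher members was 1 in place of 2 in the library labelled Egln1_Hif2a_Tie2Cre over Egln1_floxed, and 0 in place of 4 over Egln1_Tie2Cre, where Emcn and Cldn5 lie just below 2-fold on the scale of FPKM + 1. Among the 5 members with no overlapping annotated gene at all, which leaves out Jam3, Plvap, Cdh5, Jam2 and Tjp1, that count was 2. Plvap overlaps Gtpbp3, a protein-coding gene on the opposite strand, but not in exons. Centred within 10 groups of transcript length, the count over Egln1_floxed was 1, since Cldn5 was then at 0.58. Centred within 10 groups of mean FPKM, the median of the members in Egln1_Tie2Cre over Egln1_floxed was -0.085 in place of 0.033, a change of sign in a value close to 0. There Emcn, Jam2 and F11r changed sign too, at -0.065, -0.105 and -0.022, as did Esam over Egln1_Tie2Cre, at 0.060, all close to 0. Of 220 values of single genes, 206 stayed within the limits, but many of them could not move. Another filter or leaving out members does not alter the ratio of a single gene. Centring on the median of all kept genes shifted every ratio by less than 0.1. The count is therefore no measure of how firm the single values are. Plvap over Egln1_Tie2Cre was 0.84 with a pseudocount of 0.1 in place of 0.70, since its FPKM is low. Depth is unknown, so the counting error of the low values of Plvap and Jam3 cannot be given.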
